A study of Mus musculus with 16 samples.

Results

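The comparison described here is that of ribosome-bound RNA from PNOC neurons between mice that lack Lepr, the leptin receptor gene, in these cells and control mice. It rests on 8 pulldown libraries of the 16 in the series, 4 per genotype, and on the 13328 of 45706 genes whose mean was at least 1 CPM (counts scaled to a common library size) over those 8 libraries. The genotype of pools 1 to 4 is labelled Control (Lepr-flox), although their library descriptions say wildtype, and that of pools 5 to 8 is labelled Pnoc Lepr deletion. Both genotypes also carried a ROSA allele from which Cre recombinase switches on the ribosomal protein L10a fused to GFP, were kept on a C57Bl/6N background with chow, and were sampled randomly fed in the morning at 12 weeks of age (10 to 12 weeks in the extraction protocol). Each library came from the pooled hypothalami of 4 animals, so the spread between libraries is a spread between pools and not between single animals. The sources used here give no sex for the animals of a pool. The other 8 libraries are inputs, total RNA of the same lysates before precipitation, and serve below as a second fraction of the same pools.

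PNOC neurons make prepronociceptin, the precursor of the opioid-like peptide nociceptin, and in the hypothalamus many of them release the inhibitory transmitter GABA. Leptin, secreted by fat tissue, binds the long form of its receptor and acts through the kinase JAK2 and the transcription factor STAT3. In the bacTRAP method, ribosomes that carry the tagged L10a are precipitated with antibodies to GFP, and the mRNAs held on them are sequenced, so that a level is the share of an mRNA among those on tagged ribosomes. A lower level cannot distinguish fewer cells that express a gene from less mRNA, or less ribosome-bound mRNA, per cell.

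Pulldown libraries held 64435952 to 78623636 estimated counts over 21324 to 21790 genes. Neuronal markers were abundant and glial markers scarce in both genotypes. Levels were scaled within each fraction, so the input sums given here are not comparable with those of pulldown. Mitochondrially encoded RNAs summed to 263928 to 331783 CPM in input, against 809 to 1103 CPM in control pulldown. The 20 pan-neuronal markers summed to 24254 to 25169 CPM in control and 23126 to 24126 CPM in Lepr deletion pulldown, and to 11082 to 11966 CPM in input. The 16 astrocyte markers summed to 788 to 869 and 792 to 874 CPM (3867 to 4475 in input), the 15 oligodendrocyte markers to 208 to 238 and 218 to 265 CPM, the 15 microglial markers to 16.1 to 16.7 and 13.2 to 14.9 CPM, and the 16 vascular markers to 20.9 to 24.5 and 20.3 to 32.1 CPM. The 10 markers of PNOC neurons summed to 3482 to 4267 and 4214 to 4580 CPM. Pan-neuronal and microglial sums were lower in every Lepr deletion pool than in any control pool, whereas the other sums overlapped. Although the astrocyte sums overlapped, 14 of the 16 astrocyte markers had positive log2 fold changes, with a median of 0.16. The part of these markers in the results was not tested.

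Pool 1 and pool 5 stood apart from the other pools of their genotype. On the first principal component of the 8 libraries, which held 37.2% of the variance, control pools 2 to 4 scored 10.5, 14.1 and 15.5 and Lepr deletion pools 6 to 8 scored -10.6, -14.6 and -15.0. Control pool 1 scored -1.57 and Lepr deletion pool 5 scored 1.64. The mean log2 CPM of the Y-linked genes was 2.45 in control pool 1 against 3.06 to 3.21 in the other controls, and 2.95, 3.24, 2.97 and 3.85 in pools 5 to 8. Results are therefore also given without pools 1 and 5. Because these are the pools nearest to the other genotype, leaving them out widens the gap between the groups by construction, and the calls of that fit serve as a description.

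With p-values from edgeR's quasi-likelihood test, adjusted by the Benjamini-Hochberg method, 98 of 13328 genes passed the threshold of 0.05, a background of 0.735%. Of these 52 were higher (0.39%) and 46 lower (0.345%) in Lepr deletion. Most differences were small, at a median absolute log2 fold change of 0.376. More than 2-fold differences were found in 11 of the higher genes and 1 of the lower ones, Acer2. Those 11 are Aim2, Tusc1, the chemokine gene Ccl28 and otherwise numbered Gm genes. Several of the Gm genes are the uncertain chromosome 4 copies described below. The 4 and 4 libraries did not overlap in any of the 98 genes. The same was true of 1633 of the 13328 genes (12.3%), 864 higher (6.48%) and 769 lower (5.77%). An unadjusted p under 0.05 was reached by 3085 genes. With counts scaled by library totals alone 36.0% of the calls were higher, against 53.1% with TMM scaling. All 98 genes kept their sign when any 1 library was left out, which the lack of overlap fixed in advance, so it lends no support. All 98 remained called without pool 1, where 784 genes passed, and without pool 5, where 1501 passed, but only 19 to 27 remained without any 1 of the other 6 pools. The 19 called in every such fit include Acer2, Aim2, Mal2, Snapc3, Cartpt, Erdr1, Zscan26, Chka, Efcab7 and Dner, so the calls of the other genes named below depend on single libraries. Without pools 1 and 5 together the same test called 3502 genes (26.3%), 1660 higher (12.5%) and 1842 lower (13.8%). The authors' deposited table lists 1052 of 13989 genes with an adjusted p under 0.05, 612 higher and 440 lower, and the 98 genes are all among them. With counts scaled for transcript length, however, 47 of the 98 remained called, and with the mean Y-linked level as a covariate 26.

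**Figure D1:**
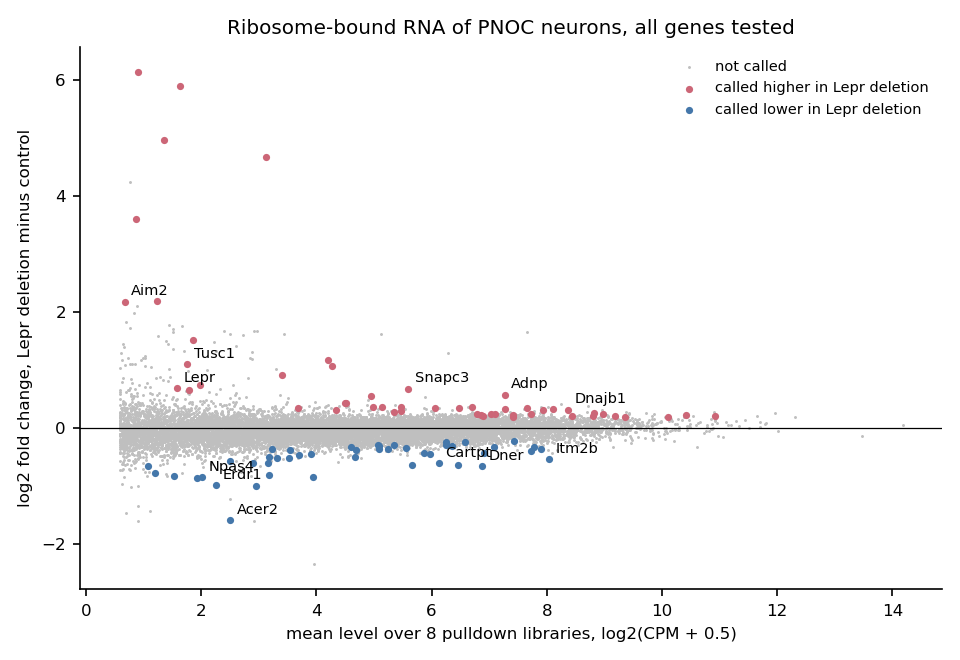
Mean level over the 8 pulldown libraries (x axis, log2 of CPM plus 0.5) against the log2 fold change of Lepr deletion minus control (y axis) for the 13328 genes tested; coloured points are the 52 genes called higher and the 46 called lower. Of the 2666 genes of lowest level 12 were higher and 7 lower, and of the 2666 of highest level 24 and 9.

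The total for the targeted gene was higher under the Lepr deletion label. Control values of Lepr (ENSMUSG00000057722, chr4:101717137-101815352 in GRCm38.p6) were 2.17, 1.68, 1.96 and 1.84 CPM, and values under the Lepr deletion label were 2.88, 3, 3.33 and 3.18 CPM, from 133 to 162 counts per control library and 203 to 243 per Lepr deletion library. The groups did not overlap, and the log2 fold change was 0.69 (SE 0.12, adjusted p = 0.0415). A gene total cannot show whether the deleted part is missing, and the sources used here do not name the exons flanked by loxP sites, so this value checks nothing about the genotype. The call held without pool 1 or pool 5 and was lost without any other single library. With counts scaled for transcript length by the authors' quantification the value was 0.34 and did not pass (adjusted p = 0.369). In input of the same pools Lepr was higher as well, at 0.49, with means of 3.62 CPM in control and 5.09 CPM in Lepr deletion. The difference between the fractions was 0.20 and did not pass edgeR's interaction test (adjusted p = 0.794). Leprot, the neighbouring endospanin gene, had a log2 fold change of 0.03 (adjusted p = 0.886), Pnoc one of -0.09 (adjusted p = 0.687) and Rpl10a, the gene of the tagged protein, one of -0.12 (adjusted p = 0.157).

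Acer2 (chr4:86874348-86932524), an alkaline ceramidase that splits ceramide into sphingosine and fatty acid, had 8, 8.54, 7.42 and 7.12 CPM in control and 3.06, 2.55, 2.44 and 2.33 CPM in Lepr deletion. No Lepr deletion pool came near the lowest control, and the log2 fold change was -1.58 (SE 0.11, adjusted p = 6.12e-05). Chka (chr19:3851585-3894369), choline kinase alpha, which starts the synthesis of phosphatidylcholine, had 37.2, 37.5, 38.3 and 39.5 CPM in control and 48, 47.6, 52.3 and 50.1 CPM in Lepr deletion (log2 fold change 0.38, SE 0.05, adjusted p = 0.00649). Over all genes 0.39% were called higher and 0.345% lower. Acer2 was the only one of 30 sphingolipid enzyme genes called. Negative values were found in 24 of the 30, with a median of -0.17 against -0.02 over all genes. Chka was the only one of 22 choline and phospholipid genes called, and that list split into 11 positive and 11 negative values. Chpt1, which acts at the end of the same route, did not pass, at -0.29 (adjusted p = 0.0665).

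Aim2 (chr1:173349547-173466040), a cytosolic DNA sensor of the inflammasome, rose from a low level. It had 0.415, 0.393, 0.329 and 0.432 CPM in control, from 24 to 33 counts, and 1.57, 1.94, 1.82 and 1.83 CPM in Lepr deletion, from 112 to 152 counts (log2 fold change 2.19, SE 0.16, adjusted p = 6.12e-05). The span of Aim2 overlaps that of Cadm3, a more abundant adhesion molecule gene at 204 CPM in control and 186 CPM in Lepr deletion, and the 2 genes' shared reads cannot be told apart here. H2-D1, a class I histocompatibility gene, fell, with 10.7, 13.1, 14.8 and 13 CPM in control and 9.7, 8.66, 9.52 and 8.28 CPM in Lepr deletion (-0.51, adjusted p = 0.0479). These were the called members among 17 genes of interferon response and DNA sensing, of which 8 had positive and 9 negative values. Over all genes 0.735% were called. Ifitm3, an interferon-induced membrane protein gene, was at 1.18 and did not pass (adjusted p = 0.073).

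Mal2 (chr15:54571366-54602846), a proteolipid of membrane sorting, had 140.0, 139.6, 132 and 136 CPM in control and 110.4, 99.3, 98.3 and 99.8 CPM in Lepr deletion (log2 fold change -0.43, SE 0.05, adjusted p = 0.00338). Itm2b (chr14:73362226-73385289), a membrane protein that binds the amyloid precursor protein, had 317, 327, 294 and 301 CPM in control and 250.4, 193, 216 and 199.6 CPM in Lepr deletion (-0.53, SE 0.08, adjusted p = 0.0145). In both genes pool 5 was the highest of the Lepr deletion pools and still lay below every control pool. Wdfy1, an endosomal protein gene, was at -0.63, Tmem176a, a small membrane protein gene, at -0.60 and Tspan13, a tetraspanin gene, at -0.35. Arxes2, a membrane protein gene of the X chromosome with a close copy, was at -0.63, so that reads of the 2 copies may be mixed. Olfm1, a secreted glycoprotein gene of neurons, fell from 247, 243, 237 and 249 CPM to 218, 187, 186 and 188 CPM (-0.32, adjusted p = 0.041).

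Several receptor and adhesion genes fell, whereas Notch2 and, as given above, Lepr rose. Dner (chr1:84369839-84696221), a neuronal transmembrane protein with EGF repeats that can bind Notch, had 141, 145, 138 and 148 CPM in control and 109, 79, 85 and 90.5 CPM in Lepr deletion (log2 fold change -0.65, SE 0.08, adjusted p = 0.00659). Notch2 had 2.11, 3.07, 2.66 and 2.43 CPM in control and 3.86, 4.35, 5.01 and 3.96 CPM in Lepr deletion (0.74, SE 0.14, adjusted p = 0.0466). In input Dner was at -0.47 and Notch2 at 0.23. The astrocyte markers had a pulldown median of 0.16, and their part in the Notch2 value was not tested. No other member of 29 Notch pathway genes passed, and over all genes 0.735% were called. Grid1, the glutamate receptor subunit delta-1, fell from 64.3, 75.4, 73.2 and 75.7 CPM to 62.6, 49, 49.2 and 50.8 CPM (-0.45, adjusted p = 0.0466), with control pool 1 and Lepr deletion pool 5 close to each other. Chrm1, the muscarinic acetylcholine receptor M1, fell from 6.11, 5.62, 5.84 and 7.02 CPM to 4.41, 3.7, 4.11 and 4.56 CPM (-0.55). Kcnj3, a G protein-gated inward rectifier channel subunit, was at -0.31, Ntng1, the adhesion molecule netrin-G1, at -0.28, Il1rapl1, a synaptic adhesion molecule, at -0.36, Rtn4r, the Nogo receptor, at -0.82 and Gfra4, a co-receptor of the GDNF family, at -0.28.

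**Figure D2:**
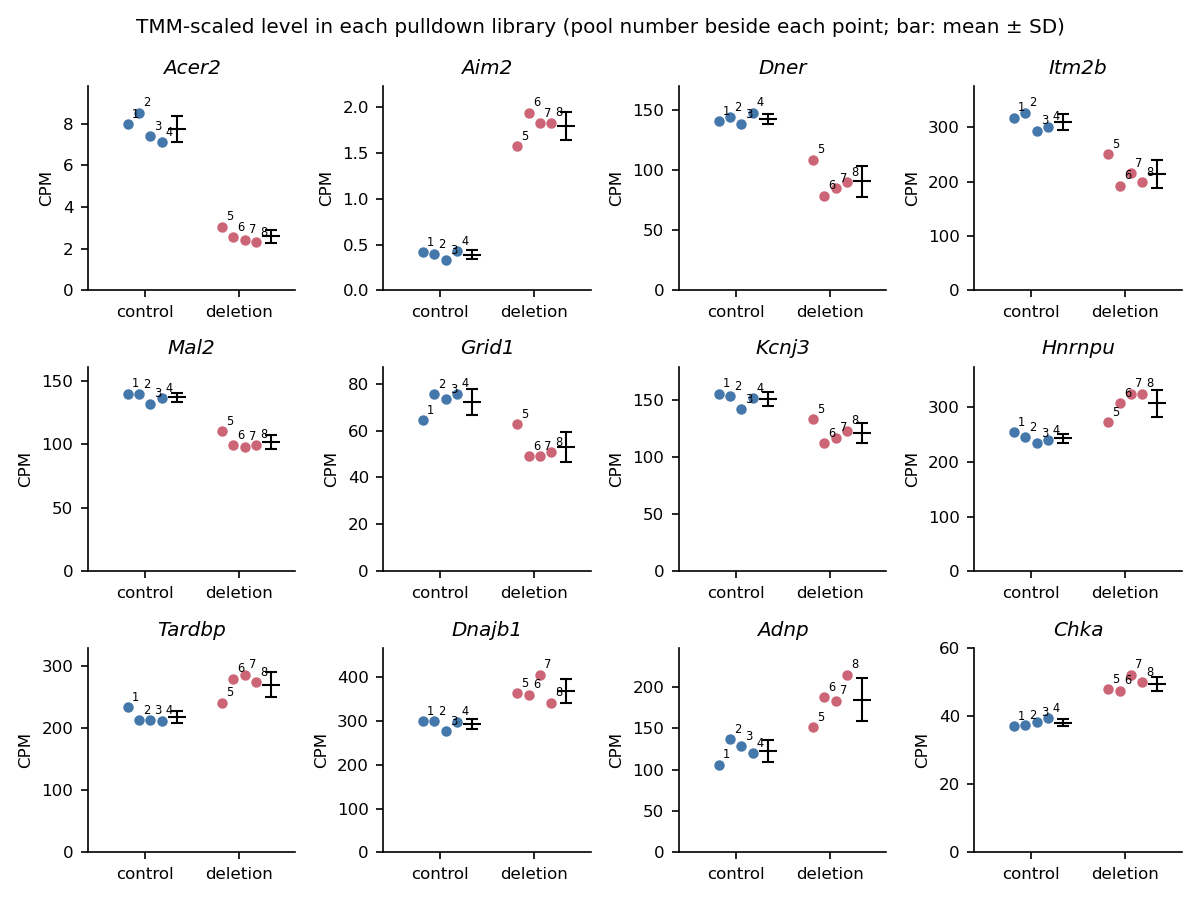
TMM-scaled level (y axis, CPM from 0) of 12 genes in each pulldown library, control pools 1 to 4 in blue and Lepr deletion pools 5 to 8 in red, with the mean ± SD of 4 libraries beside the points. The groups do not overlap in any panel; in Grid1, Tardbp and Hnrnpu control pool 1 and Lepr deletion pool 5 lie closest to each other, with Tardbp at 234 and 242 CPM.

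Hnrnpu (chr1:178321108-178338891), a nuclear matrix and RNA-binding protein, had 254, 245, 234 and 240.3 CPM in control and 272, 308, 325 and 324 CPM in Lepr deletion (log2 fold change 0.34, SE 0.06, adjusted p = 0.041). Tardbp, the gene of the RNA-binding protein TDP-43, had 234, 213, 214 and 213 CPM in control and 242, 280.2, 286 and 274 CPM in Lepr deletion (0.31, SE 0.06, adjusted p = 0.0466). Adnp (chr2:168180965-168207112), a homeobox and zinc finger protein gene, had 106, 137, 129 and 120.2 CPM in control and 151, 188, 184 and 215 CPM in Lepr deletion (0.59, SE 0.10, adjusted p = 0.043). Its whole span lies within that of the called long noncoding RNA gene Gm20716 (chr2:168180965-168230379), which fell from 264, 230.1, 222 and 234 CPM to 201, 176, 191 and 161 CPM (-0.38, adjusted p = 0.0479). The sum of Adnp and Gm20716 had a mean of 361 CPM in control and 367 CPM in Lepr deletion, with overlapping pools, and a higher Adnp level cannot be told apart from a different split of reads between the 2 genes. Zscan26 (chr13:21442180-21453727), a zinc finger protein gene, rose from 181, 178, 181 and 173 CPM to 220.3, 227, 241 and 218 CPM (0.35, SE 0.04, adjusted p = 0.00598). Tia1 and G3bp2, proteins of stress granules, were at 0.36 and 0.21, Ythdc1, a nuclear reader of methylated RNA, at 0.24, Adar, an RNA-editing deaminase, at 0.19, and Ppil4, a cyclophilin with an RNA-binding domain, at 0.35. Brd2, a bromodomain protein, fell by 0.22 on the log2 scale.

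Adss, which makes the precursor of AMP, had 141, 135, 138 and 133 CPM in control and 171, 183, 176 and 161 CPM in Lepr deletion (log2 fold change 0.34, SE 0.05, adjusted p = 0.0119). Gmps, GMP synthase, had 454, 449.7, 468 and 462 CPM in control and 506, 538, 560.5 and 572 CPM in Lepr deletion (0.25, adjusted p = 0.0432). In both genes the groups were well separated. Both act in purine synthesis, for which no list was examined. The peroxisomal genes Slc25a17, a cofactor carrier, and Pex10, a peroxin, fell by 0.43 and 0.35 on the log2 scale.

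Chromosome 4, which carries Lepr, held 18 of the 98 calls among 749 genes tested (2.4%), 15 higher and 3 lower. The next highest share, on chromosome 19, was 7 of 408 genes (1.72%). Called genes without a matched position, among them Gm17167, Gm13301 and Gm20938, are not in these counts. Of the chromosome 4 calls, 6 are numbered Gm genes between 42021268 and 42472816, near-identical copies whose reads cannot be assigned to 1 copy, and their values are uncertain. The others with single positions were spread from Rbm12b1, an RNA-binding protein gene that starts at 12138957, to Pex10, which starts at 155067030. Snapc3, a subunit of the small nuclear RNA transcription complex, rose from 40.5, 39, 32.5 and 34.9 CPM to 57.9, 56.4, 61.9 and 60.0 CPM (log2 fold change 0.69, adjusted p = 0.00149), but its span overlaps that of Psip1, a chromatin-binding protein gene at 0.27, and without the strand setting the 2 cannot be told apart. Nearer to Lepr, Tusc1, a candidate tumour suppressor gene, was at 1.11 and Efcab7, an EF-hand protein gene of the cilium, at -0.86. The input of the same pools gave 1.29 for Tusc1, -0.98 for Efcab7 and -0.91 for Acer2.

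Cytosolic chaperones are the proteins that fold and refold others in the cytosol, and several of their genes are classic targets of the heat shock factor HSF1. Of 39 genes tested, 2 rose and 0 fell, against 0.39% higher over all genes, and 33 had positive values. The list's median was 0.11 against -0.02 over all genes in pulldown, and 0.14 against -0.0008 in input. Dnajb1 (chr8:83608175-83612653), a co-chaperone of the HSP70 family, had 299, 300.0, 277 and 299 CPM in control and 363, 359.9, 405 and 342 CPM in Lepr deletion (log2 fold change 0.32, SE 0.05, adjusted p = 0.041). Fkbp4, a co-chaperone of HSP90, had 126, 119.9, 122 and 131 CPM in control and 139, 152, 152 and 151 CPM in Lepr deletion (0.25, SE 0.05, adjusted p = 0.0468). The inducible HSP70 genes Hspa1a and Hspa1b had larger values and did not pass, at 0.58 (adjusted p = 0.0777) and 0.72 (adjusted p = 0.0732), with no overlap between the groups. They are near-identical copies, so reads may be split between them. Hsph1, a nucleotide exchange factor of HSP70, missed the threshold at 0.26 (adjusted p = 0.0506). The abundant constitutive Hspa8 had 2749, 2651, 2517 and 2645 CPM in control and 2727, 2932, 3005 and 3050.3 CPM in Lepr deletion, so pool 5 lay within the control range. Without pools 1 and 5, a fit that widens the gap by construction, 20 of the 39 rose and 0 fell. The list's median was then 0.19, and 12.5% of all genes rose. The astrocyte markers had a median of 0.16 with all pools and 0.26 without pools 1 and 5, and their part was not tested.

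The promoters of 4 of these genes are shown as examples because they hold the inverted repeat to which HSF1 is known to bind. Other chaperone genes that hold it are not shown, with log2 fold changes from -0.04 for Hspb8 to 0.26 for Hsph1. The letters GAANNTTC, which read the same on both strands, were searched in RefSeq promoters of GRCm38.p6 from 250 bases before to 50 after the start. They were present in 11 of the 33 chaperone genes with a promoter in that set (33.3%), in 676 of the 9750 tested genes with one (6.93%) and in 2442 of all 27025 (9.04%). Of the 36 genes called higher that had a promoter 3 held them (8.33%), and of 30 called lower 4 (13.3%). The longer form, in which the letters NNGAA follow GAANNTTC, was present in 3 chaperone promoters, those of Hsph1, Dnajb6 and Chordc1, in 0.662% of all promoters and in 0 of the promoters of called genes. The splicing and RNA-binding genes described below also held these letters, the shorter form in 8 of 39 promoters (20.5%) and the longer in 2 (5.13%). Each line gives the 250 bases before the start on the gene's strand, 5′ to 3′, with the letters GAANNTTC in capitals.
Fkbp4 (chr6:128438657-128438906, minus strand): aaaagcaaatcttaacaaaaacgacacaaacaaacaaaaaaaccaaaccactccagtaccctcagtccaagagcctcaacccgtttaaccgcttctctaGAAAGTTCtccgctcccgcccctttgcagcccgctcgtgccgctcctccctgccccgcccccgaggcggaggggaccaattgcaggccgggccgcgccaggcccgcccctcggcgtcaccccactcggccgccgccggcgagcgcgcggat
Hspa1a (chr17:34972157-34972406, minus strand): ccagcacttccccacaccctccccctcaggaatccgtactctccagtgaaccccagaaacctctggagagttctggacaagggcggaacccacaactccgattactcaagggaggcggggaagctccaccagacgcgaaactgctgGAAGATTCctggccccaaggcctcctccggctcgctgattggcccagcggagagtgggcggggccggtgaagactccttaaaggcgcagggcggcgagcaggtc
Hspa1b (chr17:34959239-34959488, minus strand): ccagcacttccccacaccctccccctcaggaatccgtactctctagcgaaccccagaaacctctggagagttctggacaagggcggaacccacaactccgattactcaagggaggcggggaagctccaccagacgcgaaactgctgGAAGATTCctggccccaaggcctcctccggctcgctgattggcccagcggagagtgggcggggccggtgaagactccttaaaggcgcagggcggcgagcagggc
Dnaja1 (chr4:40722218-40722467, plus strand): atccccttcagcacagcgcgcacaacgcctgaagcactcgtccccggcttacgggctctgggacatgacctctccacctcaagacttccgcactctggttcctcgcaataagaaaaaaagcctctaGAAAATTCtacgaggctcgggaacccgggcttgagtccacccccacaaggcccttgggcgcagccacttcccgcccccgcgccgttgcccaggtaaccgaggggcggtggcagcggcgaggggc

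The match began 151 bases before the start in Fkbp4, 104 bases before it in Hspa1a and Hspa1b and 124 bases before it in Dnaja1, an HSP40 co-chaperone gene at 0.19 (adjusted p = 0.084). The promoter of Dnajb1, the chaperone gene with the smallest p, did not contain these letters in this window. For the leptin pathway, the letters TTCNNNGAA, to which STAT factors are known to bind, were present in 1 of 19 promoters of leptin signalling genes (5.26%), that of Cish, and in 785 of the 9750 tested genes with a promoter (8.05%). A match of letters describes the sequence and not the binding of a factor.

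The chaperonin TRiC, a ring of 8 different subunits that folds tubulin and actin, gave small values in 1 direction. None of the 14 TRiC and prefoldin genes passed edgeR's test, where 8 had an unadjusted p under 0.05 with a positive value and 1 with a negative one. The libraries of the 2 groups did not overlap for any of the 8 subunit genes Tcp1 and Cct2 to Cct8, whose log2 fold changes ran from 0.12 for Tcp1 to 0.22 for Cct4. Over all genes 6.48% were higher without overlap. The other 6 genes of the list, those of prefoldin, had negative values, 1 of them without overlap. The median of the 14 genes was 0.12 in pulldown and 0.095 in input. Cct7 had 255, 247, 247 and 249.7 CPM in control and 269, 286, 299.7 and 295 CPM in Lepr deletion (0.20, SE 0.04, adjusted p = 0.0559). Without pools 1 and 5, a fit that widens the gap by construction, these 8 subunit genes rose, as did 12.5% of all genes. Of 28 genes of mitochondrial chaperones and protein import none passed, and 11 had positive values, among them those of the matrix chaperones Hspd1 at 0.23 (adjusted p = 0.0558) and Hspa9 at 0.20 (adjusted p = 0.063).

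Of 45 genes of splicing regulators and neuronal RNA-binding proteins 4 rose, namely Hnrnpu, Tardbp, Srsf3 and Srsf7, and 0 fell, against 0.39% higher over all genes. Positive values were found in 38 of the 45. The list's median was 0.11 in pulldown, against -0.02 over all genes, and 0.04 in input. The astrocyte markers had a pulldown median of 0.16, and their part was not tested. Srsf3, a serine- and arginine-rich splicing factor, had 335, 315, 314 and 319 CPM in control and 365, 386, 375 and 356 CPM in Lepr deletion (log2 fold change 0.21, SE 0.04, adjusted p = 0.0481), and its relative Srsf7 was at 0.22 (adjusted p = 0.0479). Hnrnpa2b1, an abundant nuclear RNA-binding protein, was at 0.25 and did not pass (adjusted p = 0.0735). Without pools 1 and 5, a fit that widens the gap by construction, 23 of the 45 rose and 0 fell. In it 12.5% of all genes rose.

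Genes of protein folding in the endoplasmic reticulum (ER) mostly had negative values. Of 27 genes of ER folding and the unfolded protein response 1 fell, against 0.345% over all genes, and 0 rose. Negative values were found in 26 of the 27. Their median was -0.15 in pulldown and -0.06 in input. The called gene was Ddit3, the stress-induced transcription factor CHOP, with 13.3, 12, 13 and 11.8 CPM in control and 10.4, 9.65, 9 and 9.52 CPM in Lepr deletion (log2 fold change -0.38, SE 0.07, adjusted p = 0.0466). The ER chaperone Hspa5, also called BiP, had 267, 348, 371 and 390.4 CPM in control and 348, 315, 332 and 306 CPM in Lepr deletion, so control pool 1 was the lowest of the 8 libraries. Its log2 fold change was -0.08 (adjusted p = 0.647). Outside this list, 4 called genes encode ER-resident proteins, chosen after their values were seen. Clgn, the chaperone calmegin, fell by 0.60 on the log2 scale, Vimp, selenoprotein S of ER-associated degradation, by 0.46, Tmx3, a disulfide isomerase, by 0.29 and Sep15, a selenoprotein of the ER, by 0.23. Without pools 1 and 5, a fit that widens the gap by construction, 16 of the 27 listed genes fell. In it 13.8% of all genes fell.

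Ion channel, receptor and adhesion genes shared that pattern, with many small negative values and few calls. Of 51 potassium channel genes 1 fell, Kcnj3, and 46 had negative values, with a median of -0.12. Kcnj9, another subunit of the same channel family, was at -0.29 (adjusted p = 0.0613). Of 23 glutamate receptor genes 1 fell, Grid1, and 22 were negative, with a median of -0.175. Of 19 GABA and glycine receptor genes none passed and 14 were negative, with Gabra4 at -0.29 (adjusted p = 0.0533). Of 32 receptors of amines and acetylcholine 1 fell, Chrm1, and 27 were negative. Of 49 axon guidance genes 1 fell, Ntng1, and 45 were negative, and of 37 cadherin genes none passed and 31 were negative. Of 36 genes of peptide processing and dense-core vesicles none passed and 27 were negative, with the convertase gene Pcsk1 at -0.22 and the amidating enzyme gene Pam at -0.22. Over all genes 0.345% were called lower, and 7380 of 13328 values were negative. In input of the same pools the list medians were negative as well. They were -0.18 for glutamate receptor, -0.16 for GABA and glycine receptor, -0.13 for potassium channel and -0.12 for amine and acetylcholine receptor genes. Axon guidance genes were at -0.14, cadherins at -0.18 and peptide-processing genes at -0.14, against -0.0008 over all genes. Whether these values are particular to PNOC neurons was not tested.

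Single libraries weighed on these lists. The median deviation of the glutamate receptor genes from their 8-library mean was -0.22 on the log2 scale in control pool 1 and 0.10, 0.18 and 0.23 in control pools 2 to 4. It was 0.11 in Lepr deletion pool 5 and -0.14, -0.12 and -0.17 in pools 6 to 8. Control pool 1 thus lay below every Lepr deletion pool, and pool 5 just above control pool 2. For the ER genes control pool 1 was also the lowest, at -0.20, and Lepr deletion pool 5, at 0.07, lay just below control pool 2, at 0.08. Without pools 1 and 5 the test called 19 of 23 glutamate receptor, 13 of 19 GABA and glycine receptor, 25 of 51 potassium channel, 25 of 49 axon guidance, 19 of 37 cadherin and 25 of 36 peptide-processing genes lower, against 13.8% of all genes, and 0 of them higher except 3 peptide-processing genes. In each of these lists the median deviation was negative in control pool 1 and positive in Lepr deletion pool 5. Leaving these pools out can therefore raise the calls of such lists more than those of all genes, by construction. The share of 13.8% is then not a like background, and the counts only describe that fit. What sets pools 1 and 5 apart was not tested.

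**Figure D3:**
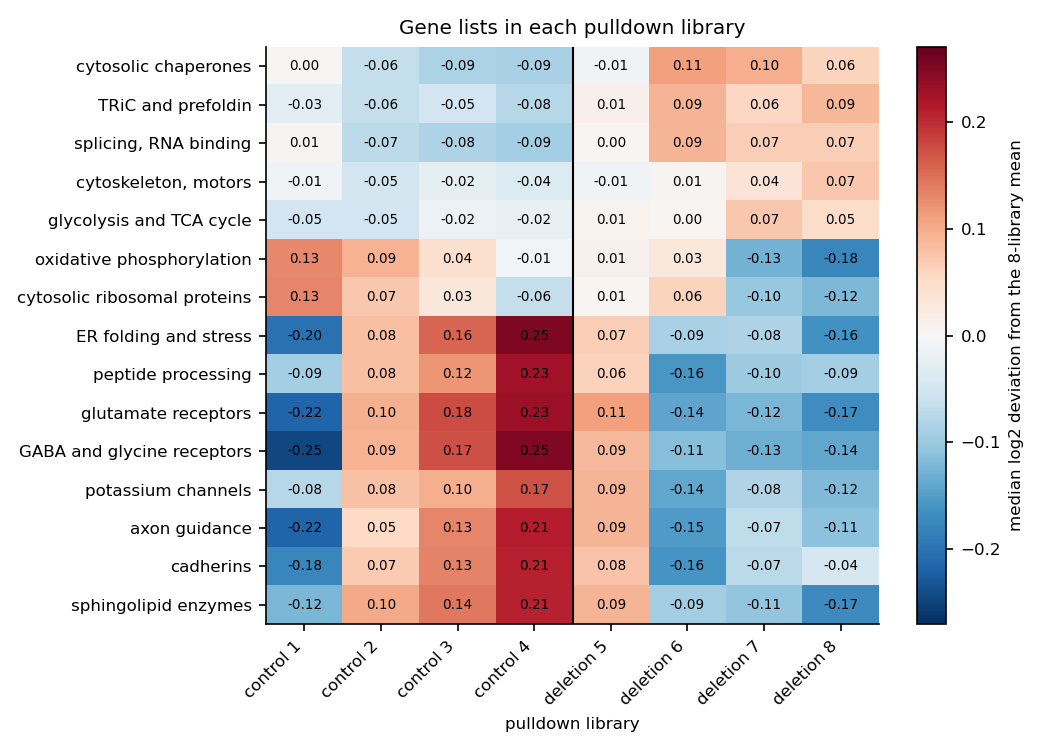
Median log2 deviation of the tested members of 15 gene lists from their 8-library mean (colour and printed value) in each pulldown library. Control pool 1 carries the lowest value of the 8 libraries for the glutamate receptor (-0.22) and ER (-0.20) lists, where control pools 2 to 4 are positive, and Lepr deletion pool 5 is positive for both.

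**Figure D4:**
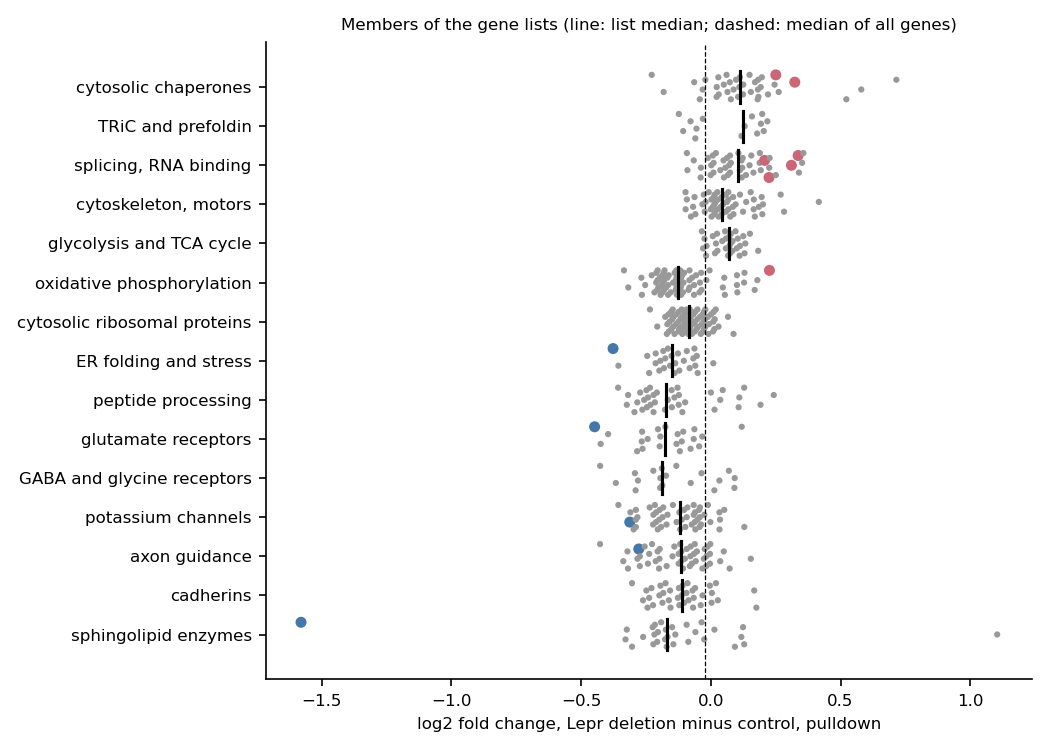
Log2 fold change of Lepr deletion minus control in pulldown (x axis) for each tested member of the same 15 lists; large red and blue points are members called higher and lower, black bars are list medians and the dashed line is the median of all genes, -0.02. Chaperone and splicing genes lie mostly to the right of the dashed line, and ER, receptor, channel and adhesion genes mostly to its left, with few members called.

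Energy metabolism split by pathway. Of 32 genes of glycolysis and the TCA cycle none passed, and 27 had positive values, with a median of 0.07, for example Eno2, neuronal enolase, at 0.11 (adjusted p = 0.104) and Pkm, pyruvate kinase, at 0.10 (adjusted p = 0.158). Of 78 nuclear genes of oxidative phosphorylation 1 rose, against 0.39% over all genes, and 67 had negative values, with a median of -0.13. The gene that rose was Atp5b, the catalytic beta subunit of ATP synthase, with 1177, 1229, 1283 and 1334 CPM in control and 1439, 1416, 1512 and 1508 CPM in Lepr deletion (log2 fold change 0.23, adjusted p = 0.0479). Its partner subunit Atp5a1 was at 0.17 (adjusted p = 0.0617), whereas the small subunit genes Cox8a and Atp5j2 were at -0.25 (adjusted p = 0.0558) and -0.32 (adjusted p = 0.0617). Uqcc2, an assembly factor of complex III, fell by 0.28 on the log2 scale. In input the median of the oxidative phosphorylation genes was 0.04. Of 81 cytosolic ribosomal protein genes none passed and 71 were negative, with a median of -0.08, and of 77 mitochondrial ones none passed and 57 were negative.

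Short transcripts were lower as a class. Length was taken as the ratio of counts to TPM (length-corrected values) in these libraries, not from an annotation, for genes above a minimum mean TPM. Among the 2584 shortest of these genes 25.8% of the log2 fold changes were positive and the median was -0.09. Among the 2584 longest 60.3% were positive and the median was 0.04. Ribosomal protein and many oxidative phosphorylation genes are short, and the part of length in their values was not tested. Scaling by TPM, which divides out length within a library, gave a median of -0.10 for the oxidative phosphorylation and -0.05 for the cytosolic ribosomal protein genes. It also moved the median of all genes from -0.02 to 0.00. A fixed length divides out of a ratio between groups, so these medians cannot tell the part of length.

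List medians were 0.01 for synaptic vesicle and 0.003 for leptin signalling genes, against -0.02 over all genes. That of the immediate early genes was -0.10, with 13 positive and 16 negative values. Over all genes 0.39% rose and 0.345% fell. Of 55 synaptic vesicle genes 2 rose. Rab3c, a small GTPase of vesicles, rose from 1655, 1787, 1889 and 1823 CPM to 1997, 2099, 2084 and 2171 CPM (log2 fold change 0.22, adjusted p = 0.0489), and Syn2, synapsin II, rose by 0.21 (adjusted p = 0.0489). Snapin, a SNARE-associated protein gene outside the list, fell by 0.23. Of 29 immediate early genes Nr4a3, an orphan nuclear receptor, rose from 28.5, 22.6, 20.7 and 26.4 CPM to 37.4, 30.9, 36.8 and 39.1 CPM (0.55, adjusted p = 0.0466), and Npas4, an activity-regulated transcription factor, fell from 3.78, 4.47, 4.66 and 5.3 CPM to 2.78, 2.91, 2.19 and 2.27 CPM (-0.84, adjusted p = 0.041). Of 24 leptin signalling genes Lepr rose and Serpina3n, a serine protease inhibitor gene, fell, from 14.3, 18.9, 19.7 and 23 CPM to 11.2, 10.5, 10.2 and 10.5 CPM (-0.84, adjusted p = 0.0125). Stat3 was at -0.11 (adjusted p = 0.188) and Ptpn11, the phosphatase SHP2, at 0.20 (adjusted p = 0.0777). None of 29 insulin and mTOR, 19 energy-sensing, 36 proteasome, 20 tRNA synthetase, 50 translation factor or 55 cytoskeleton genes passed, with list medians from -0.02 to 0.07.

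The input libraries showed which differences were also present in the whole hypothalamus of the same pools. The genotype difference in pulldown differed from that in input in 4 of 13328 genes (0.03%), by the interaction term of edgeR's quasi-likelihood test. Aim2 was higher by 2.19 in pulldown and 0.52 in input (difference 1.67, adjusted p = 0.00159), and Serpina3n was at -0.84 and 0.14 (difference -0.98, adjusted p = 0.035). Cartpt, the precursor of the peptide CART, was at -0.60 and -0.04 (difference -0.56, adjusted p = 0.0453). The predicted gene G530011O06Rik was at -0.76 and 0.70 (difference -1.46, adjusted p = 0.0477). When each library was left out in turn, Aim2 passed in 8 of 8 fits, Serpina3n in 3, and Cartpt and G530011O06Rik in 1 each, with adjusted p up to 0.271. With length-scaled counts 0 genes passed. The difference was then 1.09 for Aim2 (adjusted p = 0.505), and it was -0.97 for Serpina3n, -0.55 for Cartpt and -1.45 for G530011O06Rik (adjusted p = 0.0904 for each of these 3). For the other 94 called genes the difference between the fractions did not pass, which does not show that the fractions were alike. The values in pulldown and input were 0.32 and 0.45 for Dnajb1 and -0.45 and -0.44 for Grid1. For Adnp they were 0.59 and 0.51, and for Gm20716, which spans it, -0.38 and -0.50, while the sum of both in input had a mean of 199.9 CPM in control and 198 CPM in Lepr deletion. They lay further apart for Chka, at 0.38 and -0.04, and for Hnrnpu, at 0.34 and 0.03 (difference 0.31, adjusted p = 0.321).

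**Figure D5:**
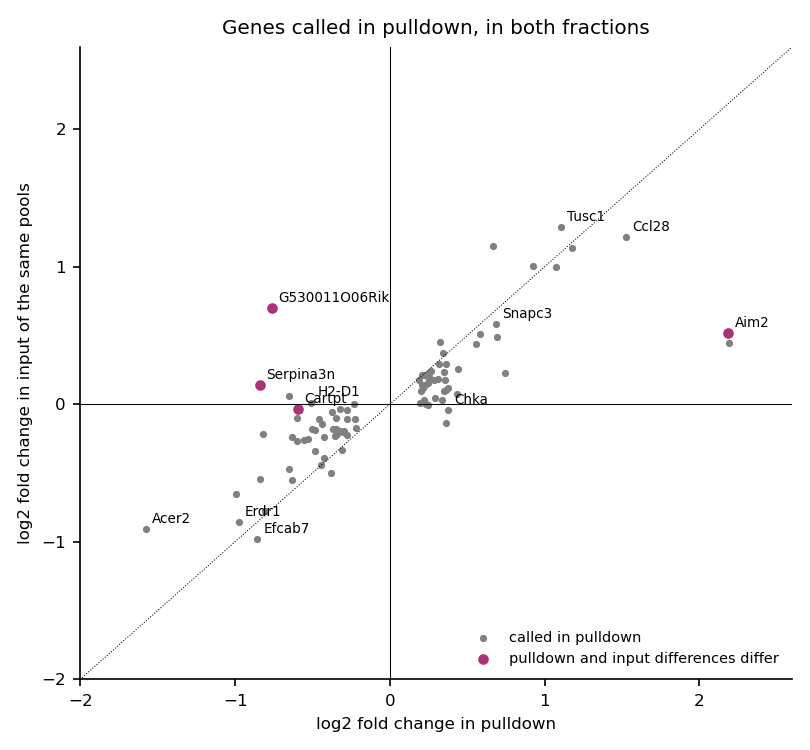
Log2 fold change of Lepr deletion minus control in pulldown (x axis) against that in input of the same pools (y axis) for 93 of the 98 genes called in pulldown; 5 numbered Gm genes beyond the axes are left out and the dotted line marks equal values. Purple points are the 4 genes whose pulldown and input differences differed, with Aim2 at 2.19 and 0.52.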

How the data were processed

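The 16 libraries came from 4 pools of 4 mice per genotype, each sequenced as pulldown and input. Per the submitters' processing notes, reads were quantified with Salmon 1.10.1 and compared with DESeq2 1.38.3, with GRCm38 named as the genome build. The authors deposited gene-level estimated counts and length-scaled estimated counts, gene TPM (length-corrected values), and a table of log2 fold changes with adjusted p-values. The sources used here do not give the strand setting. Estimated counts were rounded to whole numbers.

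In R 4.3.3, edgeR 4.0.16 (TMM, quasi-likelihood test, Benjamini-Hochberg threshold 0.05) compared the 4 and 4 pulldown libraries for genes with a mean of at least 1 CPM. Levels are TMM-scaled CPM, scaled within each fraction and so not comparable between pulldown and input. The genotype difference between fractions was the interaction term over 16 libraries. Alternatives used DESeq2 1.42.0, other scalings and filters, limma 3.58.1 on log2(TPM + 1) and log2(TPM + 0.1), a Y-linked covariate, length-scaled counts, all 16 libraries together, and leaving out libraries. On simulated data for the 13328 genes, 52% of 50 genes changed 1.25-fold and 98% of 50 changed 2-fold were recovered. Of the 173 calls on simulated data, 7 were false. Whether these rates carry over to the real libraries was not tested. The real count of calls ran from 19 to 1501 when 1 library was left out.

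A count of 3 corresponds to 0.0382 to 0.0466 CPM in a pulldown library. Within-group pairs of libraries differed beyond sampling noise (chi-square per degree of freedom 9.33 to 61.5). Input and pulldown of 1 number share a lysate. Their deviations from the group means correlated at 0.0838 to 0.492, above 0.1 in 7 of 8 pools. P-values measure the spread between pools.

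Named genes were Lepr, Leprot, Pnoc and Rpl10a. Among called genes with ordinary symbols and groups that did not overlap, they were the 12 with the smallest p per direction and the 10 with the largest change per direction at a mean of at least 4 CPM. They also took in called members and up to 4 members with the smallest p of each list. Some further genes, such as Adar, Brd2, Cadm3, G3bp2, Gm20716 and Ythdc1, were named after their values were seen. The members and the gene lists were chosen with earlier results of these data known. Coordinates are those of RefSeq for GRCm38.p6, matched for 12349 of 13328 genes by Ensembl identifier or, where that gave no match, by symbol.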

Additional observations from a re-analysis of the deposited data

Results flagged for a closer look

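In 10 of 190 groups of 4 pulldown libraries examined for the named genes, 1 library lay far from the other 3, and chance alone marks about 1 in 20 such groups. Lepr deletion pool 5 was that library for 7 genes. It had 138.6 CPM for Fkbp4 (151 to 152 in the other 3), 62.6 CPM for Grid1 (49 to 50.8), 653 CPM for Hnrnpa2b1 (777 to 786), 257.7 CPM for Hspa9 (283 to 287), 110.4 CPM for Mal2 (98.3 to 99.8), 218 CPM for Olfm1 (186 to 188) and 264 CPM for Pam (232 to 233). Control pool 1 had 234 CPM for Tardbp, against 213 to 214 in the other controls. Control pool 2 had 233 CPM for Hspa9 (243 to 245), and control pool 3 had 277 CPM for Dnajb1 (299 to 300.0).

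The genotype difference in pulldown exceeded or fell short of that in input, on the log2 scale, by 1.67 for Aim2, -0.56 for Cartpt, -1.46 for G530011O06Rik and -0.98 for Serpina3n, each past the threshold of the interaction test.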

How the results depend on the processing

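The 98 genes kept their direction in every alternative run, but these runs reuse the same libraries and lend no independent support. The count of genes called, with those higher and lower in that order, was 266, 136 and 130 without a filter, 1100, 618 and 482 with DESeq2, 678, 374 and 304 in the fit of 16 libraries, and 3502, 1660 and 1842 without pools 1 and 5. It was 52, 25 and 27 with log2(TPM + 1), 46, 24 and 22 with log2(TPM + 0.1), 28, 17 and 11 with the Y-linked covariate, and 60 with length-scaled counts, of which 24 were lower. Of the 98 genes, 47 remained called with length-scaled counts, 44 with log2(TPM + 1), 41 with log2(TPM + 0.1) and 26 with the Y-linked covariate. All 98 remained called with DESeq2 and in the fit of 16 libraries, and 96 without a filter. Library totals gave 31 higher. Leaving out 1 library gave 19 to 1501 genes, 13 to 742 higher and 6 to 759 lower. The cause was not tested. With other settings (RLE factors, filterByExpr) the count stayed within 1.5 times of 98, at 110 and 108.

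No paired analysis was possible because the pulldown pools of the 2 genotypes share no replicate number. For the difference between fractions, 4 genes passed, and 4 with the pool as a replicate block. The count was 2 with filterByExpr, 19 with DESeq2, 0 with length-scaled counts, 139 without pools 1 and 5, and 1 to 62 without 1 library. Depth limits genes of few counts, and 4 pools per group limit small differences.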
